A study of Mus musculus with 2 samples.

Results

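Arterial endothelial cells line the arteries and arterioles that carry blood into the tissue, and 238 of them were found among the 3451 cerebellar cells that passed the filters, 87 of 1388 in the library labelled WT and 151 of 2063 in the library labelled KIKO. They were chosen by their own transcript counts. A barcode passed with over 500 genes, over 1000 and at most 20000 unique molecular identifiers (UMIs, each of which tags 1 captured RNA molecule), and under 10% mitochondrial UMIs. A cell counted as endothelial with at least 3 of the 5 genes Cldn5, Flt1, Pecam1, Cdh5 and Slco1a4 detected and fewer than 3 of the 5 mural cell genes Abcc9, Kcnj8, Atp13a5, Vtn and Notch3. An endothelial cell counted as arterial with at least 3 of the 7 genes Gkn3, Bmx, Egfl8, Sema3g, Vegfc, Npnt and Igfbp3 detected, detection being 1 UMI or more.

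The study set out to learn what the KIKO genotype does to the cerebellum, cell by cell. KIKO (knock-in knock-out) mice carry a knock-in allele over a knock-out allele and model Friedreich ataxia, a mitochondrial disease of the nervous system and heart. The labels give tissue and genotype and neither age nor treatment. The study places the mice at an early stage of the disease and took C57BL/6 littermates as WT. Cerebella of several mice were pooled per genotype, and the cell suspensions went through cryopreservation and thawing, so that each group is 1 library in which single mice cannot be told apart. No difference between WT and KIKO therefore has a replicate check, no test was made, and every interval below is a 95% interval of counting error.

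The artery is the stiff, high-pressure end of the vessel tree. Its endothelium is known for Notch signalling, in which the ligands Dll4, Jag1 and Jag2 engage Notch1 and Notch4 and switch on Hey and Hes repressors, for ephrin-B2 (Efnb2), the membrane ligand that sets arteries apart from EphB4-bearing veins, and for the connexins Gja4 and Gja5, which couple neighbouring cells. It also lays down and regulates the elastic lamina, through elastin (Eln), the fibulins and matrix Gla protein (Mgp), an inhibitor of calcification. The exchange of nutrients takes place further down, in capillaries rich in transporters such as Mfsd2a and in the carbonic anhydrase Car4, and in veins marked by Nr2f2 and Slc38a5.

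Arterial cells made up 10.6% of endothelial cells labelled WT (87 of 817; exact binomial interval 8.62 to 13.0) and 11.7% of those labelled KIKO (151 of 1294; 9.97 to 13.5), a difference of 1.02 percentage points (Newcombe interval -1.8 to 3.71). Of all cells they made up 6.27% and 7.32%, a difference of 1.05 points (-0.7 to 2.72). Neither difference was larger than counting error. With 2 markers in place of 3 the shares were 17.5% and 17.4%, and the difference turned to -0.12 points.

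The arterial cells held 954685 UMIs in WT and 1710016 in KIKO. Their median depth was 10592 UMIs per cell in WT (range 1593 to 19908) and 11200 in KIKO (1491 to 19736), with medians of 3557 and 3633 genes and of 2.21% and 2.27% mitochondrial UMIs. The other endothelial cells were shallower, with medians of 6984 and 7159 UMIs, and a rule that counts detected markers favours deep cells. Of the barcodes in the files, 3237 in WT and 3685 in KIKO, 45 sequences occurred in both libraries, and 0 of these were among the kept cells of both.

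The 7 genes of the rule were unevenly spread over the cells it chose. Sema3g, a secreted semaphorin, had a UMI in 85.1% of arterial cells in WT and 90.7% in KIKO, and in 17.0% and 16.4% of the other endothelial cells. Bmx, a Tec-family kinase, was found in 69.0% and 70.2% of arterial cells against 3.84% and 3.67% of the others. Gkn3, a gastrokine of arterial endothelium, was found in 37.9% and 50.3% against 1.1% and 1.4%, at summed levels of 184 and 235 counts per 1000000 UMIs (CPM) in arterial cells and 1.40 and 2.81 CPM in the others. Among microglia, which should lack these genes and had median depths of 5671 and 6926 UMIs, Gkn3, Bmx and Vegfc were found in 0 of 49 cells in WT and 0 of 104 in KIKO after thinning to 3000 UMIs per cell, which allows shares of cells with a UMI of up to 6.12% and 2.88% (3 counts of the total). After thinning, Sema3g and Igfbp3 were likewise found in 0 microglia of either library. Npnt, the basement membrane protein nephronectin, had a UMI in 12.3% and 6.15% of unthinned microglia and in 2.04% and 5.77% of thinned ones. Egfl8 had a UMI in 0 microglia in WT and, in KIKO, in 3.85% of unthinned and 2.88% of thinned microglia. Because these genes chose the cells, their high levels are a description.

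The number of markers detected formed a gradient rather than a step. In WT 524 endothelial cells had none of the 7 markers, 150 had 1, 56 had 2, 36 had 3, 20 had 4 and 31 had 5 to 7. In KIKO the numbers were 818, 251, 74, 58, 37 and 56. Just outside the threshold, cells with 2 markers held Mgp at 177 CPM in WT and 75.9 CPM in KIKO, and just inside it, cells with 3 markers held it at 352 and 219 CPM. Mgp went on to 1140 and 425 CPM at 4 markers and to 2150 and 1320 CPM at 5 to 7. Elastin followed the same order in WT, from 68.3 CPM at 3 markers to 113 at 4 and 335 at 5 to 7, and in KIKO it stood at 42.3, 41.7 and 94.4 CPM.

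Several capillary and venous genes ran the other way along the same axis, but not all did. Tmsb10, an actin-binding peptide gene, stood at 1590 CPM in WT and 1650 CPM in KIKO in cells with no arterial marker and at 208 and 218 CPM in cells with 5 to 7. Car4 went from 800 to 36.9 CPM in WT and from 782 to 74.1 CPM in KIKO, and the venous amino acid transporter gene Slc38a5 from 96.1 to 5.28 CPM and from 106 to 2.91 CPM. Vwf, which encodes von Willebrand factor, showed no order, with 84.1 to 248 CPM in WT and 74.6 to 135 CPM in KIKO. Mfsd2a went from 189 to 132 CPM in WT and showed no order in KIKO, with 164 to 251 CPM. Cxcl12 rose from 1400 CPM at 0 markers to 1580 at 3 in WT and from 1780 to 2210 in KIKO. At 5 to 7 markers Cxcl12 stood at 625 and 1140 CPM. Median depth moved along with the marker number, from 6576 UMIs at 0 markers to 15000 at 7 in WT and from 6614.5 to 14576.5 in KIKO, and its part in these levels was not tested.

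**Figure D1:**
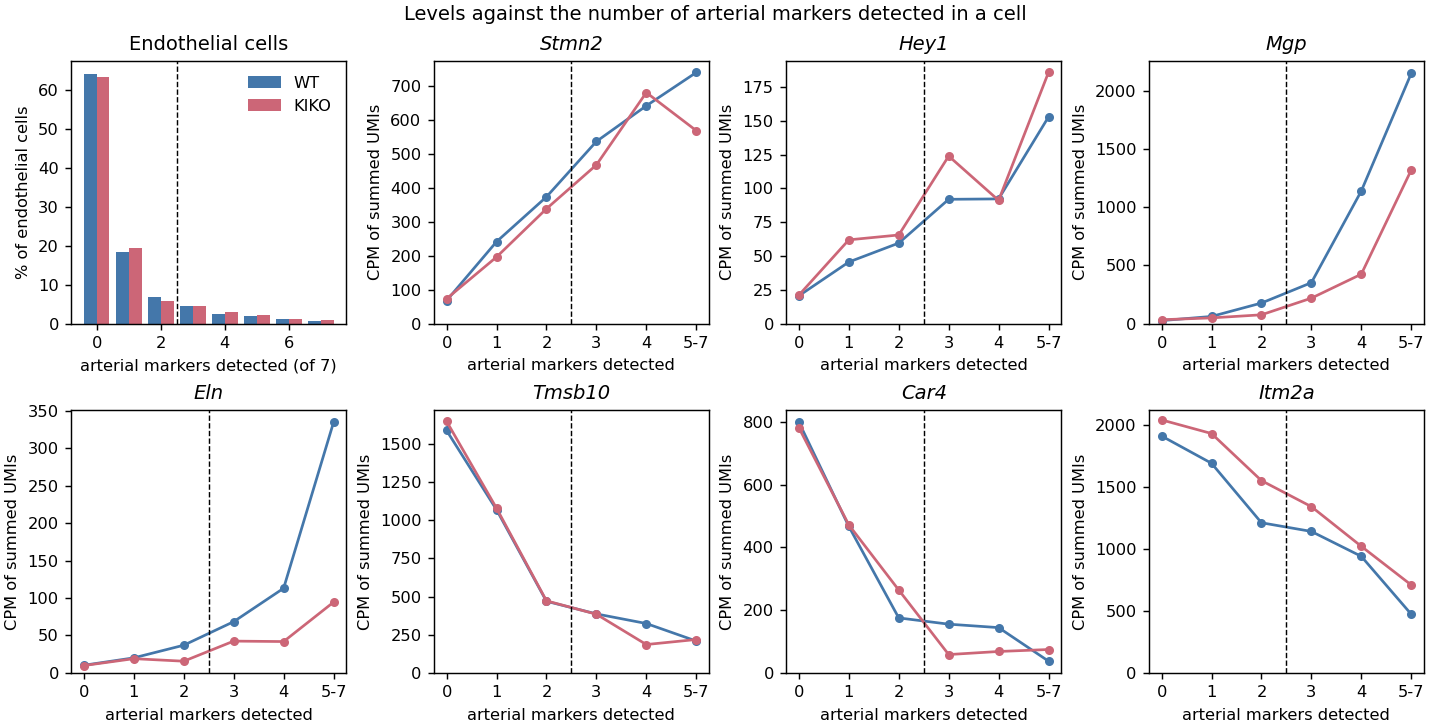
The upper left panel gives the percentage of endothelial cells (y axis) by the number of arterial markers detected (x axis) in WT (blue) and KIKO (red); the other panels give the CPM of UMIs summed over those cells for 7 genes outside the rule, with cells of 5 to 7 markers pooled. The dashed line is the threshold of 3 markers. Stmn2, Hey1, Mgp and Eln are higher on its right side and Tmsb10, Car4 and Itm2a lower, and Mgp reaches 2150 CPM in WT and 1320 CPM in KIKO.

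The arterial cells were next set against the other endothelial cells of the same library, leaving out the genes of the rule. Of 4108 genes with enough UMIs (at least 50 CPM in 1 of the 4 sums and 30 UMIs in all), 112 (2.73%) were at least 2-fold higher in arterial cells in both libraries and 74 (1.8%) at least 2-fold lower in both. In either library alone 262 genes in WT and 232 in KIKO passed 2-fold. Any higher level in both libraries was found for 1628 genes (39.6%) and any lower level in both for 1464 (35.6%), and the median log2 ratio over all genes was 0.01 in WT and 0.02 in KIKO. These ratios describe the cells that the rule picked from these same libraries. A gene that reached 50 CPM in only 1 of the 2 kinds of cell had to be higher there, so the list counts below are a description.

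Of 25 further arterial genes, 22 were measured well enough, and 17 of them were at least 2-fold higher in arterial cells in both libraries and 21 were higher at all. Their median log2 ratio was 1.75 in WT and 1.70 in KIKO. Tm4sf1, a tetraspanin-like membrane protein of arterial endothelium, stood at 1630 CPM against 440 CPM in WT and at 1580 against 437 CPM in KIKO. Stmn2, known as a microtubule regulator of neurons, stood at 638 against 139 CPM and at 556 against 128 CPM. Alpl, the tissue-nonspecific alkaline phosphatase, had log2 ratios of 2.09 and 1.92. Gja4 was scarce but steep, at 35.6 against 2.27 CPM in WT and 29.8 against 2.47 CPM in KIKO. The exception was Nrp1, the semaphorin and VEGF co-receptor often listed as arterial, which was lower in arterial cells with log2 ratios of -1.04 and -1.0. Members that reached 50 CPM only in the arterial sums had to be high there, so these counts are a description.

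The Notch pathway was represented by its ligands and targets. Of 8 pathway genes compared, 4 were at least 2-fold higher in arterial cells in both libraries, namely the ligand genes Dll4, Jag1 and Jag2 and the target Hey1. Hey1 reached 50 CPM only in the arterial sums and so had to be higher there. Dll4 stood at 169 CPM in WT and 171 CPM in KIKO against 79.2 and 66.9 CPM in the other endothelial cells, and Hey1 at 116 and 142 CPM against 30.4 and 35.5 CPM. The receptor Notch1 was less far apart, with log2 ratios of 0.63 and 0.97, and Notch4 had 0.56 and 0.16. Hes1, a repressor that many signals induce, was lower in arterial cells, at -0.63 and -0.1. Nrarp, a feedback inhibitor of the pathway, stood at 46.1 and 45.0 CPM against 17.1 and 14.2 CPM.

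Matrix genes supplied several of the steepest ratios. Of 16 elastic and basement membrane genes compared, 6 were at least 2-fold higher in both libraries and 0 at least 2-fold lower. Any higher level in both libraries was found for 12 and any lower level in both for 2. Members that reached 50 CPM only in the arterial sums, such as Mgp and Fbln5, had to be higher there, so these counts are a description. Mgp (chromosome 6, 136872435 to 136875823, minus strand, GRCm38) was at 1230 CPM in arterial cells and 49.5 CPM in the others in WT, a log2 ratio of 4.63 (counting interval 4.44 to 4.82), and at 708 and 41.3 CPM in KIKO, a log2 ratio of 4.10 (3.93 to 4.27). Fbln5 (chromosome 12, 101746565 to 101819055, minus strand), which encodes the fibulin that tethers elastic fibres to cells, was at 55.5 against 0.35 CPM in WT and 25.1 against 1.46 CPM in KIKO. Fbln2 had log2 ratios of 3.88 and 3.53, and Col18a1, the basement membrane collagen that yields endostatin, 4.31 and 3.62. The laminin chain gene Lama3 was also higher, at 2.08 and 2.06, whereas fibronectin (Fn1) and Sparc stood at similar levels in both kinds of cell, with log2 ratios between -0.16 and 0.01.

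Among genes that act on the vessel wall, Edn1, the precursor of the vasoconstrictor endothelin-1, stood at 311 CPM in WT and 229 CPM in KIKO against 88.3 and 82.4 CPM. Trpv4, a calcium channel of endothelial dilation, had log2 ratios of 1.74 and 1.67. The endothelial nitric oxide synthase gene Nos3 was only slightly higher, at 0.55 and 0.31. By contrast Nos1 (chromosome 5, 117781032 to 117958840, plus strand), the neuronal nitric oxide synthase, was at 69.1 CPM in WT and 53.2 CPM in KIKO against 0.525 and 2.58 CPM, log2 ratios of 7.04 (5.43 to 9.36) and 4.36 (3.69 to 5.09). Its UMIs came from 32 of 87 arterial cells (36.8%) in WT and 46 of 151 (30.5%) in KIKO. After each cell was thinned to 3000 UMIs, Nos1 was found in 24.7% and 12.3% of arterial cells, in 0.308% and 0.589% of the others and in 0 of 49 and 0 of 104 microglia (up to 6.12% and 2.88%).

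The 12 genes furthest above the other endothelial cells by the smaller of the 2 ratios also held Cytl1, a secreted cytokine-like protein, at 51.3 CPM in WT against 0 UMIs in the other cells (a log2 ratio of at least 6.61, against a floor of 3 counts) and at 17.0 against 0.225 CPM in KIKO. They held the transcription cofactor gene Ldb2 (3.48 and 3.91), the plasma membrane calcium pump gene Atp2b4 (3.54 and 3.38), Tmem100, a gene downstream of BMP9 and ALK1 (3.84 and 3.23), C1qtnf9 (4.17 and 2.99), the tetraspanin gene Tspan2 (2.98 and 3.40) and Efna5 (3.39 and 6.38). Of the 96 Efna5 UMIs of arterial cells in KIKO, 51 came from 1 cell. Beyond these, Pdgfa, a growth factor for mural and glial precursor cells, had log2 ratios of 2.07 and 1.86, and Smad6, an inhibitor of BMP signalling, 1.78 and 2.03.

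At the other end, Adgrl3, the adhesion receptor latrophilin 3, was at 53.4 CPM in arterial cells against 373 CPM in WT and at 12.3 against 280 CPM in KIKO, log2 ratios of -2.80 and -4.51. Car4 stood at 106 against 659 CPM and at 66.7 against 657 CPM. Hmcn1, which encodes the matrix protein hemicentin, stood at 76.5 against 460 CPM and at 135 against 696 CPM. Slc38a5 (-2.43 and -3.02), Ttyh2 (-2.44 and -2.74), Unc13c (-3.24 and -2.39), Flrt2 (-2.37 and -3.54), Rbm20 (-2.51 and -2.26), Ndnf (-2.34 and -2.24), Lmntd1 (-3.19 and -2.20) and Vwa3a (-2.27 and -2.18) were lower as well. Cxcl10 was listed here at -5.63 and -2.77 and had a UMI in only 1 arterial cell in WT and 2 in KIKO; with 2 markers in place of 3 its WT ratio turned to 5.02.

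**Figure D2:**
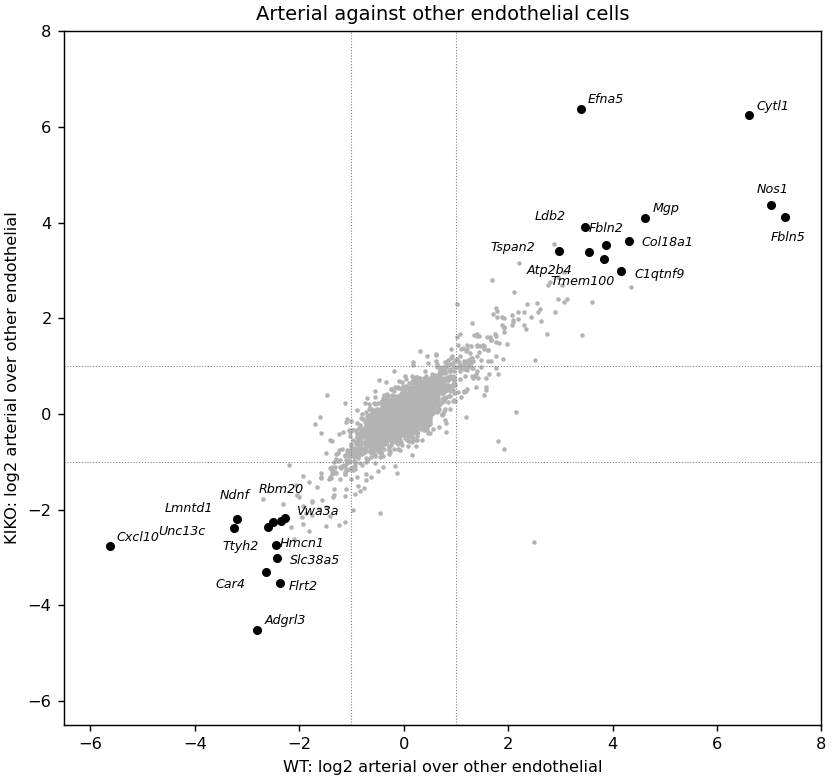
Each point is 1 of 4108 genes, with the log2 ratio of CPM in arterial over other endothelial cells in WT on the x axis and in KIKO on the y axis. Black named points are the 12 highest and 12 lowest genes; dotted lines mark 2-fold. Mgp lies at 4.63 and 4.10 and Car4 at -2.64 and -3.30.

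Capillary and venous lists were low in the arterial cells. Of 15 capillary genes compared, 6 were at least 2-fold lower in both libraries and 13 were lower in both, with medians of -0.97 in WT and -0.96 in KIKO. They held the transferrin receptor Tfrc (-1.75 and -1.82), the large neutral amino acid transporter Slc7a5 (-1.59 and -1.35) and the monocarboxylate transporter Slc16a1 (-1.36 and -1.73). The thyroid hormone and organic anion transporter Slco1c1 was the capillary gene that was higher in both, at 0.12 and 0.34. Of 11 venous genes, 5 were at least 2-fold lower in both, among them Nr2f2 at 23.0 against 94.8 CPM in WT and 25.7 against 83.2 CPM in KIKO. Vcam1, a leukocyte adhesion molecule, and Tmem252 from the same list were higher in arterial cells, at 0.69 and 0.56 and at 0.65 and 0.40.

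Detection of arterial genes and of genes listed as venous overlapped within cells. Of the venous list, Vcam1 and Tmem252 were higher in arterial cells and Vwf showed no order by marker number, whereas Slc38a5 and Nr2f2 were lower. At least 3 of the 8 venous markers Slc38a5, Nr2f2, Lcn2, Il1r1, Vwf, Vcam1, Ackr1 and Tmem252 were found in 29 of 87 arterial cells in WT (33.3%) and 35 of 151 in KIKO (23.2%), against 29.5% and 25.6% of the other, shallower endothelial cells. After thinning to 3000 UMIs per cell the shares were 11.8% and 5.48%, against 14.9% and 14.5%. With the whole list of 16 venous genes, at least 3 were found in 78.2% and 67.5% of arterial cells and in 68.5% and 66.6% of the others, and after thinning in 41.2% and 24.7% against 47.4% and 45.9%. Barrier genes went either way. The glucose transporter Slc2a1 stood at 3280 CPM in WT and 3010 CPM in KIKO against 3010 and 2520 CPM, and of 10 barrier genes compared 4 were higher and 6 lower in both libraries. The exporter Abcg2 was lower in arterial cells, at -0.83 and -1.03. Of the 13 mitochondrially encoded genes 1 was higher and 10 were lower in both libraries, and the 75 nuclear oxidative phosphorylation genes had medians of 0.01 and 0.01.

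WT and KIKO arterial cells were then compared gene by gene. Of 3904 genes with at least 50 CPM in 1 library and 30 UMIs in both together, 18 (0.461%) were at least 2-fold higher in KIKO and 22 (0.564%) at least 2-fold lower, with a median log2 ratio of 0.01. In the other endothelial cells 2 of 3718 genes were at least 2-fold higher and 4 lower. Of the 40 genes past 2-fold in arterial cells, 28 had the same sign there and 3 were also past 2-fold. The larger number in arterial cells stands beside their smaller sums, 954685 and 1710016 UMIs against 5717102 and 8904696, and no test of it was made. For gene lists, members with at least 10 UMIs were counted by direction; over all 10543 such genes 5694 (54.0%) were higher and 4849 (46.0%) lower in KIKO, with a median of 0.04 in arterial and 0.04 in other endothelial cells.

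Directions between WT and KIKO rest on the labels alone and were not checked against a targeted gene.

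Notch ligand genes, the arterial gene Tm4sf1 and the repressor gene Hes1 stood at similar levels in both libraries. Of these, Hes1 was itself lower in arterial than in other endothelial cells. Dll4 was at 169 CPM in WT and 171 CPM in KIKO, Jag2 at 312 and 292, Jag1 at 108 and 100, Tm4sf1 at 1630 and 1580 and Hes1 at 259 and 258 CPM. Of 25 arterial genes outside the rule 9 were higher and 16 lower in KIKO, with a median of -0.11 against 0.05 in the other endothelial cells, and 4 of the 22 at 50 CPM were past 2-fold, all lower. Hey1 had a log2 KIKO over WT ratio of 0.28 (-0.05 to 0.62) and Stmn2 of -0.20 (-0.35 to -0.05). Of the 14 Notch genes counted, 5 were higher and 9 lower in KIKO, with a median of -0.02. The receptor Notch4 stood at 141 CPM in WT and 90.6 CPM in KIKO (log2 ratio -0.64, -0.98 to -0.30; other endothelial cells -0.24), whereas Notch1 was at 289 and 334 CPM (0.21).

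Efnb2 was higher in KIKO. Ephrin-B2 (chromosome 8, 8617434 to 8661242, minus strand) had 86 UMIs in WT and 300 in KIKO, 90.1 and 175 CPM, a log2 ratio of 0.96 (0.61 to 1.32). It was found in 46 of 87 arterial cells in WT and 103 of 151 in KIKO (and in 4.11% and 0.769% of microglia), with a median of 0.56 and 1.03 UMIs per 10000 UMIs of the cell, a 90th percentile of 2.57 and 4.64 and a highest value of 4.94 and 17.0. In the other endothelial cells its ratio had the opposite sign, at -0.32, which left a difference of 1.28 between the cell groups (0.86 to 1.70). At every marker number from 3 upwards it was higher in KIKO, at 129, 198 and 206 CPM against 81.4, 77.0 and 106 CPM in WT, whereas at 2 markers, outside the rule, it was lower, at 63.0 against 123 CPM. The ratio was 0.46 with at least 2 markers in place of 3 and reached 1.19 under the other choices tried. Its receptor gene Ephb4 stood at 41.9 and 37.4 CPM.

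Vegfc (chromosome 8, 54077606 to 54187096, plus strand), the lymphangiogenic growth factor and itself 1 of the 7 genes of the rule, stood at 123 CPM in WT and 232 CPM in KIKO, a log2 ratio of 0.92 (0.62 to 1.23) against -0.17 in the other endothelial cells. Its median over cells was 0.861 and 1.1 UMIs per 10000 and its 90th percentile 4.8 and 6.5. The ratio lay between 0.63 and 1.13 under the other choices tried. Because Vegfc helped to choose the cells, its ratio, its contrast between the cell groups and its levels by marker number are a description. At 3, 4 and 5 to 7 markers Vegfc stood at 81.4, 97.5 and 177 CPM in WT and 121, 172 and 368 CPM in KIKO. At 2 markers, outside the rule, it was lower in KIKO, at 41.2 against 54.3 CPM. Gkn3 was at 184 and 235 CPM, and Bmx, Egfl8, Sema3g, Npnt and Igfbp3 stood at 175 and 150, 129 and 136, 272 and 277, 97.4 and 93.0, and 176 and 153 CPM. Kdr, the main receptor of VEGF-A, stood at 126 CPM in WT and 194 CPM in KIKO, and it was also higher in the other endothelial cells (log2 ratios 0.62 and 0.39). Robo4 was at 119 and 171 CPM (0.52, against -0.04). Of 15 guidance and growth factor genes 10 were higher and 5 lower in KIKO, with a median of 0.19.

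Several genes of the elastic lamina and of large arteries were lower in KIKO. Mgp was at 1230 CPM in WT and 708 CPM in KIKO, a log2 ratio of -0.79 (-0.91 to -0.68; other endothelial cells -0.26). Elastin (chromosome 5, 134702593 to 134747323, minus strand) was at 183 and 63.2 CPM, -1.54 (-1.90 to -1.18; others -0.27). Clusterin, the secreted chaperone encoded by Clu (chromosome 14, 65968483 to 65981547, plus strand), was at 360 and 154 CPM, -1.23 (-1.47 to -0.99), and in the other endothelial cells it was on the other side of 0, at 0.47. Fbln5 was at 55.5 and 25.1 CPM (-1.14) and Cytl1 at 51.3 and 17.0 CPM (-1.60, -2.31 to -0.91), found in 11 cells of each library. Clu had a UMI in 64.4% of arterial cells in WT and 36.4% in KIKO, against 17.8% and 7.69% of microglia, and Mgp in 66.7% and 56.3%, against 5.48% and 5.38%. Of 21 matrix genes counted, 8 were higher and 13 lower in KIKO, with a median of -0.13, and of the 16 at 50 CPM 2 were past 2-fold, Eln and Fbln5, both lower.

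Each cell was also scored by how many of Mgp, Clu, Eln, Fbln5 and Cytl1 it held, a set chosen after their values were seen. At least 3 of the 5 were found in 37 of 87 arterial cells in WT (42.5%, 32.0 to 53.6) and in 31 of 151 in KIKO (20.5%, 14.4 to 27.9). After thinning to 3000 UMIs per cell the shares were 17.6% (15 of 85) and 7.53% (11 of 146), and the share of cells with none of them was 27.1% and 51.4%. In cells with at least 3, Mgp stood at 2420 CPM in WT and 2030 CPM in KIKO (-0.25, -0.39 to -0.12). In cells with fewer than 3 Mgp was higher in KIKO, at 183 and 333 CPM (0.87, 0.54 to 1.21). Eln was lower in KIKO in both groups (-1.04 and -0.97), as was Clu (-0.33 and -1.15). Fbln5 and Cytl1 were at -0.24 and -0.57 with at least 3, and had 0 UMIs in WT with fewer. The same genes cut the groups, so these values are a description. Whether the lower sums come from fewer cells with such transcripts or from fewer transcripts per cell was not tested. Across the other choices of cells tried, the share with at least 3 lay between 26.6% and 58.1% in WT and between 14.2% and 31.6% in KIKO.

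2 measurements stood beside the lower elastic genes. Smooth muscle genes were lower in KIKO as a whole list (7 of 7 counted, median -1.62; -0.62 in the other endothelial cells), with a summed level of 546 CPM in WT and 266 CPM in KIKO against 148 and 103 CPM in the other endothelial cells, and Cnn1 at 0 in both. At least 2 smooth muscle markers were found in 30 arterial cells in WT (34.5%) and 38 in KIKO (25.2%), and 52 of 95 Acta2 UMIs in WT came from 1 cell. Without the arterial cells that held 2 or more of these markers, at least 3 elastic genes were found in 31.6% of cells in WT and 17.7% in KIKO, and Cytl1 turned to 0.59. The elastic set was chosen after its values were seen, so these shares are a description. Without the upper UMI limit, which added 56 cells in WT and 69 in KIKO, the Mgp ratio was 0.01 and Fbln5 turned to 0.26, whereas Eln and Clu kept their sign under every choice tried (-0.87 to -1.78 and -0.76 to -1.92).

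**Figure D3:**
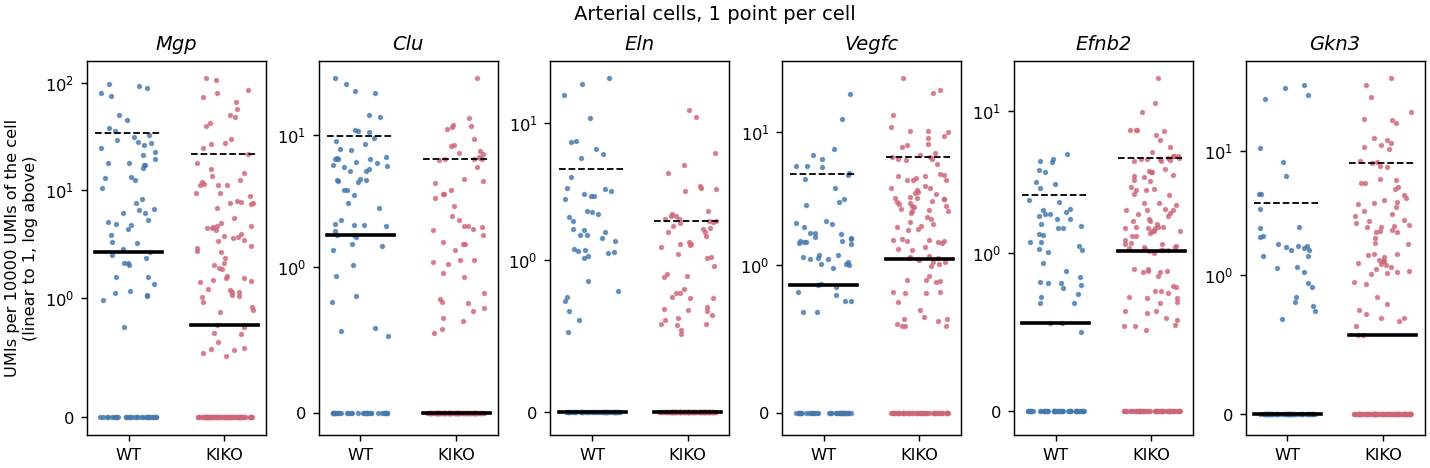
Each point is 1 arterial cell, 87 in WT (blue) and 151 in KIKO (red), and the y axis gives UMIs of the gene per 10000 UMIs of the cell, linear up to 1 and logarithmic above. The solid line is the median and the dashed line the 90th percentile. For Mgp the median is 2.65 in WT and 0.773 in KIKO and for Clu 1.75 and 0, while for Vegfc and Efnb2 both lines lie higher in KIKO.

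Signals that arterial endothelium sends to the vessel wall went partly the same way. Hbegf, a growth factor for smooth muscle, stood at 396 CPM in WT and 215 CPM in KIKO (-0.88, -1.09 to -0.67; other endothelial cells -0.37), and Edn1 at 311 and 229 CPM (-0.44). In cells with fewer than 3 of the elastic genes Hbegf had the opposite sign, at 0.44 (0.06 to 0.83). Edn1 was at 0.34 there, with an interval that reached 0 (-0.01 to 0.69). In cells with at least 3 they were at -1.33 (-1.67 to -1.0) and -0.85 (-1.21 to -0.49). Without the arterial cells that held 2 or more smooth muscle markers, Hbegf was at -0.19 and Edn1 at 0.58. Trpv4 was at 140 and 98.8 CPM (-0.51), and Ptgis, the prostacyclin synthase, at 30.4 and 9.94 CPM (-1.61, -2.57 to -0.70). Nos3 was at 327 and 284 CPM and Pdgfa at 195 and 186 CPM. Gja5 was scarce, with 17 UMIs in WT and 12 in KIKO. Of 19 vasoactive genes counted, 6 were higher and 13 lower, with a median of -0.26.

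Immediate early genes, the transcription factors and feedback regulators that cells switch on within minutes of stimulation or handling, were lower in KIKO without exception among the 18 counted, with a median of -0.52 in arterial and -0.52 in other endothelial cells. None of the 17 at 50 CPM passed 2-fold. Fos stood at 6030 CPM in WT and 4180 CPM in KIKO (-0.53; others -0.60), Jun at 5020 and 3680 (-0.45), Junb at 3460 and 2030 (-0.77) and Zfp36, an mRNA decay factor, at 1280 and 819 CPM (-0.64). Egr1 was closer to equality in arterial cells than in the others, at 1780 and 1130 CPM and log2 ratios of -0.66 and -1.17. Dusp1, the phosphatase that shuts off MAP kinases, was nearest to equality, at 1540 and 1460 CPM. Without the upper UMI limit the median was -0.11.

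Heat-shock chaperones went the other way. Of 16 counted, 15 were higher in KIKO and Cryab lower, with a median of 0.16 in arterial and 0.22 in other endothelial cells, and 1 of the 14 at 50 CPM passed 2-fold. The inducible Hsp70 genes led the list. Hspa1a was at 1180 CPM in WT and 2130 CPM in KIKO, a log2 ratio of 0.85 (0.76 to 0.95), and Hspa1b at 466 and 1030 CPM, 1.14 (0.99 to 1.29); they are near-identical neighbours, so that the split of UMIs between them is uncertain. Hsph1, the Hsp110 nucleotide exchange factor of Hsp70, was at 130 and 189 CPM (0.54, against 1.0 in the other endothelial cells). The constitutive Hspa8 was at 1920 and 2280 CPM (0.25) and Hspb1, the small chaperone Hsp27, at 3330 and 4070 CPM (0.29), while Hsp90ab1 stood at 3850 and 3920 CPM.

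The promoters of the heat-shock genes were read for the element that heat shock factor 1 binds, spelled here as GAANNTTC or TTCNNGAA on either strand, in RefSeq windows of GRCm38.p6 from 250 bases before to 50 bases after the gene's start. The element was present for 10 of the 12 list genes that had a window and for 17.0% of 27025 genes in all. The 250 bases before the start are shown for the 3 inducible genes above, each on the minus strand and written 5′ to 3′ in the direction of transcription, with the element in capitals. The windows are chr17:34972157-34972406 for Hspa1a, chr17:34959239-34959488 for Hspa1b and chr5:149636316-149636565 for Hsph1.
Hspa1a: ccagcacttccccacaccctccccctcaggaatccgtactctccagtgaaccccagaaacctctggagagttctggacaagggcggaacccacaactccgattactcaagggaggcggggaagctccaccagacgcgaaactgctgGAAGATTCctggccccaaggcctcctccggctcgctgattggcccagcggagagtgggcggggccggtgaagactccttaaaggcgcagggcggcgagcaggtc
Hspa1b: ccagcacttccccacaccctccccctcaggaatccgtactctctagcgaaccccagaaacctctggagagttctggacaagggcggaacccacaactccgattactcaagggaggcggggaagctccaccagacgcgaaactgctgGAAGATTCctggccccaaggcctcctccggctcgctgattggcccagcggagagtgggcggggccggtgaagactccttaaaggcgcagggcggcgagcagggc
Hsph1: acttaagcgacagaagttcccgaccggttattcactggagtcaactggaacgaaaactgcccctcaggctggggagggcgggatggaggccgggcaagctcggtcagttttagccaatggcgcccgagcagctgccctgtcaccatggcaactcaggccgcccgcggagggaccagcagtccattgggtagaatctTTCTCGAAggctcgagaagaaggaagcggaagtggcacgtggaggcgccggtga
The element lay from -104 to -97 in Hspa1a and Hspa1b, whose windows were identical at 247 of 250 bases (98.8%), and from -54 to -47 in Hsph1. A match is a string of letters and was not tested as a site. For the immediate early genes the cyclic AMP response element (TGACGTCA) was found in 2 of 15 windows and the serum response element (CArG box) in 2 of 15, against 2.03% and 1.81% of all genes. For the Notch list the RBPJ motif (TGGGAA) was found in 3 of 11 windows, against 28.3% of all genes.

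**Figure D4:**
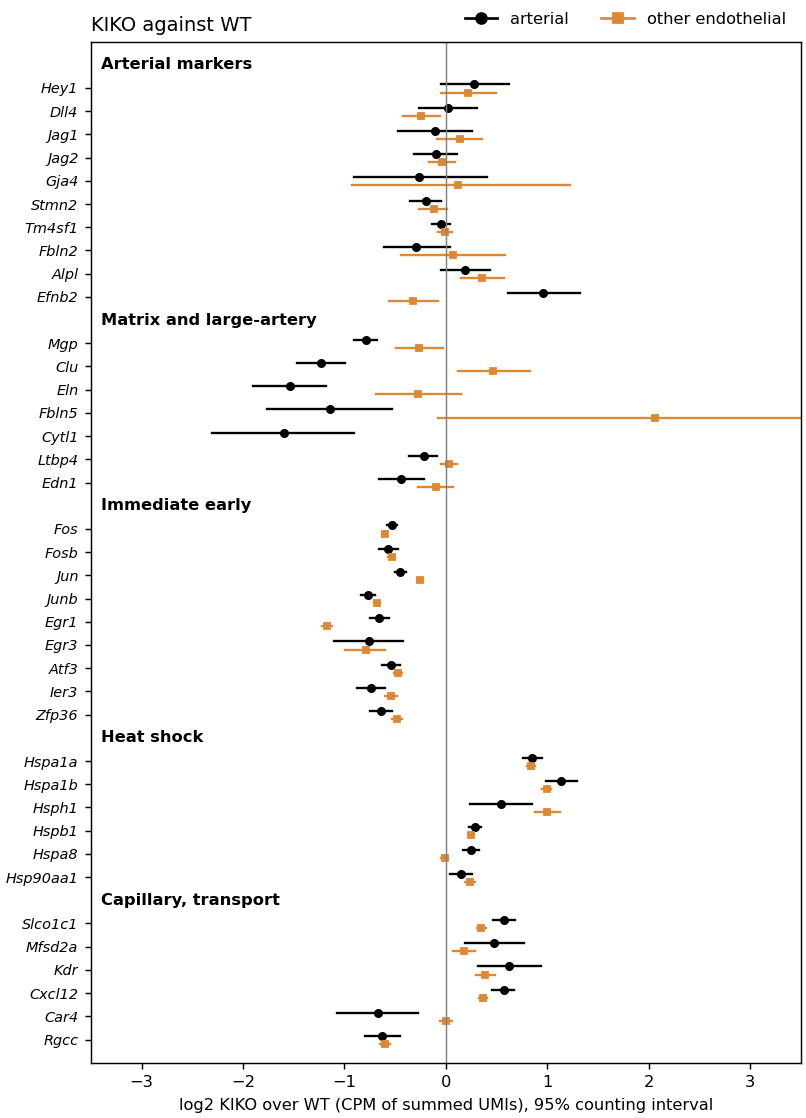
The x axis is the log2 ratio of CPM in KIKO over WT for named genes in arterial (black circles) and other endothelial cells (orange squares), with 95% counting intervals as bars; the line at 0 is equality. Immediate early genes lie left of 0 and the inducible heat-shock genes right of 0 in both kinds of cell, whereas Efnb2 (0.96 and -0.32) and Clu (-1.23 and 0.47) lie on opposite sides.

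In the capillary and barrier lists more genes were higher than lower in KIKO, beside 54.0% higher among all 10543 genes counted. Medians are given for arterial and then for other endothelial cells, beside 0.04 and 0.04 over all those genes. Of 15 capillary genes 10 were higher and 5 lower, with medians of 0.20 and 0.18, while of 12 venous genes 2 were higher and 10 lower, with medians of -0.24 and 0.06. Of 14 barrier genes counted 10 were higher and 4 lower, with medians of 0.23 and 0.16. Slco1c1 stood at 1090 CPM in WT and 1620 CPM in KIKO (0.57, against 0.35 in the others) and the lipid transporter Mfsd2a at 148 and 206 CPM (0.48, against 0.18). Claudin-5 (Cldn5), the main tight junction strand protein and a gene of the rule, was at 2980 and 3520 CPM, and Slc2a1 at 3280 and 3010 CPM. The chemokine gene Cxcl12 was at 1110 and 1650 CPM (0.57, against 0.37). Fmo2 (83.8 and 45.6 CPM), Car4 (106 and 66.7) and Rgcc (513 and 332) from the capillary list were lower, Rgcc to a like extent in the other endothelial cells (-0.63 and -0.60).

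Inflammatory genes showed no common direction. Of 18 interferon-stimulated genes 5 were higher and 13 lower in KIKO, with a median of -0.09, and Isg15 was at 549 CPM in WT and 375 CPM in KIKO. Of 13 genes of leukocyte adhesion and antigen presentation 11 were higher, with a median of 0.11, among them the class I heavy chain gene H2-K1 at 788 and 961 CPM. Vcam1 stood at 117 and 116 CPM and Icam1 at 75.4 and 64.9 CPM. The flow-responsive factors Klf2 (4790 and 4200 CPM) and Klf4 (2930 and 2490 CPM) were slightly lower, and of 10 genes of their list 2 were higher and 8 lower. The BMP targets Id1, Id2 and Id3 were at 1950 and 1540, 189 and 120, and 1310 and 1080 CPM, and of 16 genes of TGF-beta and BMP signalling 9 were higher and 7 lower, with a median of 0.05. Of 13 glucocorticoid-responsive genes 2 were higher and 11 lower, with a median of -0.28, and of 15 clock genes 5 and 10, with a median of -0.05 against -0.42 in the other endothelial cells.

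Of 80 nuclear oxidative phosphorylation genes counted 33 were higher and 47 lower in KIKO, with a median of -0.03 in arterial and -0.03 in other endothelial cells, and none of the 75 at 50 CPM passed 2-fold. Of 13 mitochondrially encoded genes 6 were higher, led by mt-Co2 at 1870 CPM in WT and 2590 CPM in KIKO and mt-Co3 at 2060 and 2730 CPM, while mt-Co1 was at 6460 and 5930 CPM. Of 11 genes of iron handling 4 were higher and 7 lower, with a median of -0.08, and 0 of the 6 at 50 CPM passed 2-fold; the ferritin heavy chain gene Fth1 was at 1820 and 1420 CPM.

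The 10 highest genes of the whole table were led by Ccl2, a monocyte chemokine, with 0 UMIs in WT and 95 in KIKO (a log2 ratio of at least 4.14), of which 72 came from 1 cell and all from 2 cells. In microglia Ccl2 was found in 34.2% and 31.5% of cells. Gm15564, a predicted gene, stood at 22.0 and 73.7 CPM (1.74, 1.07 to 2.49; others 0.26) and was found in 19 cells in WT and 84 in KIKO. Ccn2, a matricellular target of YAP, was at 19.9 and 52.0 CPM (1.39; others -0.15), and turned to -0.11 without the upper UMI limit. Immp2l, a mitochondrial inner membrane peptidase (1.33), the steroid-metabolising Akr1c14 (1.31), AU040320 (1.26), the actin regulator Coro1c (1.20; others -0.16), the kinase gene Prkcb (1.17), the sorting nexin gene Snx18 (1.15) and Cecr2 (1.15) followed.

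The 10 lowest genes were mostly those of other cells. The haemoglobin genes Hbb-bt (-4.51), Hba-a1 (-2.38), Hba-a2 (-2.18) and Hbb-bs (-1.66) belong to red blood cells. Of 1891 Hbb-bs UMIs in WT 1880 came from 1 cell, and of 1074 in KIKO 1049 came from 1 cell; without the top cell of each library the ratio was 0.34. The smooth muscle genes Acta2 (-1.63), Tagln (-1.67) and Myh11 (-1.62) followed, and 47 of 80 Tagln UMIs in WT lay in 1 cell. Among the rest, Adgrl3 stood at 53.4 and 12.3 CPM (-2.12, -2.93 to -1.36; others -0.42), Emp3, an epithelial membrane protein family member, at 81.7 and 19.9 CPM (-2.04, -2.66 to -1.44) in 25 cells of WT and 16 of KIKO (and in 39.7% and 40.0% of microglia), and Cytl1 as above. Without the upper UMI limit Adgrl3 was at -0.09 and Emp3 at -0.14.

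Transcripts of other cell types were present in the arterial cells. Choroid plexus markers summed to 1930 CPM in WT and 801 CPM in KIKO, against 2600 and 3180 CPM in the other endothelial cells. Ttr, the transthyretin gene, gave 1780 and 715 CPM of the arterial sums, and 0 of the 3 choroid plexus genes counted were higher in KIKO. The mural genes of the rule summed to 73.3 and 100 CPM. Red blood cell markers summed to 3300 and 863 CPM, microglial markers to 105 and 116 CPM and astrocyte markers to 73.3 and 74.3 CPM. Fibroblast markers summed to 48.2 CPM in WT and 96.5 CPM in KIKO, with 4 of 4 higher in KIKO, against 9.10 and 24.8 CPM in the other endothelial cells. Neuron markers were at 0 in WT and 4.09 CPM in KIKO, T cell markers at 0 and 5.85 CPM, and oligodendrocyte markers at 11.5 and 9.36 CPM. Their part in the ratios above was not tested.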

How the data were processed

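Single-cell RNA from cerebellum was captured with the 10x Genomics 3′ v3.1 kit in 2 libraries, 1 per genotype. The authors deposited raw UMI counts per gene and barcode for 32285 genes, made with Cell Ranger (7.0.1 in the matrix headers) on mm10, and no normalization had been applied. Of the gene identifiers 32158 were found in GENCODE vM21 (GRCm38), the source of coordinates. The cell totals that the study states are not used here.

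Cells were filtered and classed by the rules given in the report, which keep the study's thresholds, except that the upper UMI limit, which the study states together with a limit of 10000 genes, was read on its own. It removed 578 cells in WT and 388 in KIKO; read jointly, 1957 and 2450 cells would be kept. Doublets were not called. Within a library the UMIs of a class were added up and scaled to CPM. A ratio carries an exact Poisson-ratio interval, a share a Clopper-Pearson interval (a share of 0, the limit that 3 counts allow) and a difference of shares a Newcombe interval. All cover counting error only. Against 0 UMIs a floor of 3 counts per sum was used. For shares of cells with a UMI, cells were also thinned to 3000 UMIs, which left out 2 arterial cells in WT and 5 in KIKO. Levels of 1 gene in different cells are compared, never those of different genes.

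Named genes are those of 29 lists, the 10 highest and 10 lowest KIKO over WT ratios, the 12 highest and 12 lowest arterial over other ratios, and the 5 highest and 5 lowest differences between these cell groups; the genes of the rule and sex-linked genes were left out of the rankings. The members and the lists were chosen with earlier results of these data known. The targeted gene and some list members are not reported here.

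Alternatives changed the marker number, the UMI limit, thinning, the smooth muscle, mural and red blood cell content, the marker list, the scaling (TMM from edgeR 4.0.16, size factors), the weight of cells and the filters. Python 3.11.15, scipy 1.17.1 and R 4.3.3 were used. Ratios and their intervals were tested on simulated Poisson counts, which lack the piling up of UMIs in single cells. Thinning was tested on cells of the WT library, and the intervals of shares were not tested.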

Additional observations from a re-analysis of the deposited data

Results flagged for a closer look

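For 7 genes the KIKO over WT ratio in arterial cells and that in the other endothelial cells lay on opposite sides of 0, each with a counting interval that did not reach 0. The difference between the cell groups was not tested, because each genotype holds 1 library. The difference of log2 ratios, arterial minus other endothelial, was 1.28 for Efnb2 and -1.7 for Clu. For Efna5 it was 2.99, and 51 of its 96 arterial UMIs in KIKO came from 1 cell; without the top cell of each library its arterial ratio was 0.19. For the haemoglobin genes it was -5.15 (Hbb-bt), -2.66 (Hba-a1), -2.38 (Hba-a2) and -2.12 (Hbb-bs), and nearly all of their UMIs came from 1 cell in each library.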

How the results depend on the processing

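No paired analysis was possible because WT and KIKO have 1 library apiece. Of 1082 gene ratios recomputed, 840 stayed within their counting interval, 226 moved further, and 16 that were at or past 2-fold changed sign. The share difference turned to -0.12 points with at least 2 markers. The 40 genes past 2-fold between KIKO and WT became 99 with at least 4 markers, 178 without the upper UMI limit (17 higher and 161 lower), 220 with thinned markers, 120 without cells holding smooth muscle or mural genes, 174 at 20 CPM and 10 UMIs and 1757 with no CPM filter; the no-limit setting had an all-gene median of 0.12; the other settings gave 28 to 60, with 5 higher and 23 lower at 2 markers and 25 and 12 without each gene's top cell. The 186 genes past 2-fold between arterial and other endothelial cells became 108, 304 and 1135 without the UMI limit, at 20 CPM and with no filter. The immediate early median moved to -0.11 without the UMI limit and lay between -0.41 and -0.54 otherwise; the heat-shock median lay between 0.14 and 0.41. Changes of sign were Ccn2 -0.11, Fbln5 0.26, Gja5 0.06, Hba-a1 0.45, Hba-a2 0.61, Hbb-bs 0.60 and Hbb-bt 0.86 without the UMI limit. Cytl1 turned to 0.82 without cells holding smooth muscle or mural genes. Without arterial cells holding 2 or more smooth muscle markers, Cytl1 turned to 0.59 and Gja5 to 0.50. Hba-a2 turned to 1.12 without cells holding 2 or more red blood cell markers. Without the top cells Hba-a1 turned to 0.42, Hba-a2 to 0.74, Hbb-bs to 0.34 and Hbb-bt to 0.74. With at least 2 arterial markers Cxcl10 in WT turned to 5.02. The cause was not tested. Depth limits scarce genes such as Gja5, Ptgis and Cytl1, with 12 to 49 UMIs in a library.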
